A study of Homo sapiens with 8 samples.

Results

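The genes described here are 43 integrin and focal adhesion genes, taken by name: 13 integrin alpha subunits, 8 beta subunits, 3 kindlins, 2 talins, 12 adaptor and scaffold genes, 3 kinases and 2 plakins. Of these, 42 have a row in a count table of 30434 genes, and 36 passed a filter on low counts and were tested. ITGA8 has no row, so its level was not analysed here, though its promoter window is among those read below. RNA sequencing measured them in SKBR3, a line derived from a human breast cancer in which ERBB2 (HER2) is amplified. The control group comprised 4 libraries of SKBR3 cells whose genotype is labelled WT. The other group comprised 4 libraries of a stable SKBR3 derivative carrying lentiviral short hairpin RNAs against FOXA1, a forkhead transcription factor of luminal breast cells. For that line 3 individual hairpins were used, and whether it is a pool or a clone, and whether the controls carried a vector, is not given in the sources used here. Both groups were grown in the same medium, with no further treatment named. Nothing says that replicates came from separate cultures, so p-values measure the spread between these libraries, which may be technical.

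Integrins are receptors made of 1 alpha and 1 beta subunit, which bind matrix proteins such as laminin, fibronectin and collagen outside the cell. Talins and kindlins bind the beta tail and switch the receptor on, and adaptors such as vinculin, paxillin, zyxin, tensins and the complex of ILK, LIMS1 and parvins join it to actin. The kinases FAK (PTK2), PYK2 (PTK2B) and SRC signal from these sites. In breast epithelium, ITGA6 with ITGB4 also builds hemidesmosomes, where the plakins DST and PLEC tie the receptor to keratin filaments.

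Promoter windows (RefSeq, GRCh38.p14) were at hand for 30 of the 43 members, and the other 13 were absent from the promoter set used here. Shown are those of the 3 members with the largest rises, and of the member with the largest fall, among the 30. They were picked because these genes carry large changes. FERMT1, with the largest rise of all members, and ITGA9, with the largest fall, are not among the 30. Each window runs 5′ to 3′ on the strand of its gene and covers 250 bases before and 50 after the annotated start. Capitals mark matches, on either strand, to 5 patterns: TGTTTAC and TGTTTGC (forkhead cores), TGANTCA (AP-1), GGAATG (TEAD) and GGGCGG (GC box).
ITGA6, chr2:172427086-172427385, plus strand: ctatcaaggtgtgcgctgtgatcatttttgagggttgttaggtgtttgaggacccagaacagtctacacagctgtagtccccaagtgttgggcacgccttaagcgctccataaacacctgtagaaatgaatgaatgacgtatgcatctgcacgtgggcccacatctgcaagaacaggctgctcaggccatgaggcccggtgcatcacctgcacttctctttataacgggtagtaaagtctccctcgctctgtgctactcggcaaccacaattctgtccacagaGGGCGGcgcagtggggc
PARVB, chr22:44024052-44024351, plus strand: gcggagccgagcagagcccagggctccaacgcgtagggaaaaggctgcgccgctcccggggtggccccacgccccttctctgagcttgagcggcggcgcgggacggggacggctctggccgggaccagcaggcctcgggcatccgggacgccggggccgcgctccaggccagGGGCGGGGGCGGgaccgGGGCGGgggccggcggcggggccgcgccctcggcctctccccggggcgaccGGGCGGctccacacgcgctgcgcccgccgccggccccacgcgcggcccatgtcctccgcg
ITGA5, chr12:54419217-54419516, minus strand: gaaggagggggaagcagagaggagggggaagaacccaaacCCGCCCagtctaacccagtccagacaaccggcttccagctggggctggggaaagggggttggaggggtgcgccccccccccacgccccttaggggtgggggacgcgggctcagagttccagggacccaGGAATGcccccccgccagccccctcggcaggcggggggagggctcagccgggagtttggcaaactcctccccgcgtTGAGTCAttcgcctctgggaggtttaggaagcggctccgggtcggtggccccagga
ITGB6, chr2:160200223-160200522, minus strand: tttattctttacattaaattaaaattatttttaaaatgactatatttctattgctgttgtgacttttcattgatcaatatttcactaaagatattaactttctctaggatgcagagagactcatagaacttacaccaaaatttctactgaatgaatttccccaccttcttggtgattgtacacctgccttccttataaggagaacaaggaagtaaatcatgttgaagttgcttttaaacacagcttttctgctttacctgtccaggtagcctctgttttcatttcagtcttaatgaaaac

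These windows differed in make-up. That of ITGB6 had 31.7% G and C, no CpG and no match, while that of PARVB had 82.0% G and C, 46 CpGs and 4 GC boxes. The ITGA5 window held 1 match each to the AP-1, TEAD and GC box patterns, and the ITGA6 window, with 53.0% G and C, held 1 GC box. No 2 of the matches shown share a base. TGTTTAC was found in the windows of 0 of 30 members against 3.42% of 35116 RefSeq promoters, and TGTTTGC in 1 of 30 (ITGA2) against 3.89%. TGANTCA was found in 3 of 30 (BCAR1, DST and ITGA5; 7.71% of all promoters), GGAATG in 5 of 30 (DST, ITGA10, ITGA5, ITGB1 and VCL; 14.0%) and GGGCGG in 18 of 30 (45.0%). The windows of the 30 members had a median of 70.5% G and C and 27.5 CpGs, against 58.7% and 14.0 for all 35116. For these medians and for the matches, members had 1 window each. The 35116 were all windows of the set, neither reduced to 1 per gene nor matched to the members. The part of this make-up in the counts of matches was not tested. A match is a description of letters, not a bound site. The RefSeq start of PARVB lies inside the gene's span in GENCODE 29, which begins at 43999211, so other starts of PARVB are outside the window shown.

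FOXA1 itself went from 191.4 CPM ± 1.65 in control to 3.95 CPM ± 0.340 in knockdown (± SD, n = 4 libraries per group), where CPM is counts scaled to library size. Library totals ran from 19087878 to 23786684 counts, so that 3 counts, taken here as the limit of detection and called the floor, equal between 0.123 and 0.153 CPM. On the second principal component, control replicate 3 was set apart from its group (1.82% of the variance, against 90.9% for the one that separates the groups). The luminal markers EPCAM, KRT7, KRT8, KRT18, KRT19, ERBB2 and ESRP1 together had 18300 to 20400 CPM in control and 11500 to 12400 in knockdown, with 3 higher and 3 lower. ERBB2 (7299 to 1338 CPM), KRT7 (2199 to 636.1 CPM) and KRT19 (2642 to 722.0 CPM) fell, EPCAM (179.2 to 225.9 CPM), KRT8 (4513 to 5611 CPM) and KRT18 (2309 to 3452 CPM) rose, and ESRP1 (37.5 and 36.5 CPM) did not pass the threshold. Summed markers of other cells were low: 12.1 to 14.8 against 15.6 to 17.8 CPM for 7 basal or myoepithelial genes, and 5.26 to 7.02 against 11.3 to 12.3 for 6 fibroblast genes (COL1A2 and DCN at the floor throughout). They were 20.7 to 22.2 against 19.8 to 22.4 for 5 endothelial genes, and 2.94 to 3.75 against 1.43 to 1.55 for 6 blood cell genes (PTPRC and CD79A at the floor throughout). Of 2 endothelial markers tested, CDH5 (16.1 to 20.1 CPM) rose and VWF (5.21 to 0.844 CPM) fell. Of 3 blood cell markers tested, CD14 (0.181 to 0.532 CPM) rose, ITGAL (1.97 to 0.0439 CPM) fell and LYZ (0.774 and 0.757 CPM) did not pass the threshold. Of 6 basal markers tested, TP63 (0.147 to 7.85 CPM) and OXTR (1.61 to 2.49 CPM) rose. ACTA2 (1.33 to 0.0673 CPM), KRT17 (1.22 to 0.180 CPM) and MYLK (8.39 to 4.86 CPM) fell, and KRT5 (1.14 and 1.30 CPM) did not pass the threshold. KRT14, below the filter, had 0 to 1 counts in control and 4 to 7 in knockdown. Of 3 fibroblast markers tested, COL3A1 (0.0222 to 4.31 CPM) and PDGFRB (0.410 to 2.83 CPM) rose and COL1A1 (5.38 to 4.32 CPM) fell. VIM, below the filter, had 0 to 2 counts in control and 7 to 11 in knockdown. TP63, COL3A1 and CD14 passed the filter on low counts through the knockdown libraries alone. ACTA2, KRT17 and ITGAL passed it through the control libraries alone, so all these markers had to differ. PDGFRB was over the filter in 4 knockdown libraries and 1 control library. The part of other cells in the changes below was not tested. In bulk RNA, a change in the number of cells of a kind and a change in RNA per cell cannot be told apart.

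The comparison asked how the adhesion genes differ between the control cells and the stable FOXA1 knockdown line. Effects of FOXA1 loss and of making that line cannot be told apart in this design. Of the 36 genes tested, 17 were higher in knockdown (39.4% of all 16430 genes tested were) and 14 were lower (37.7% of all genes), at an adjusted p under 0.05 in edgeR's quasi-likelihood test. A change of at least 2-fold was called upwards for 10 genes (14.9% of all genes) and downwards for 5 (13.4%). For 31 of the 36, no control library had a CPM within the knockdown range or the reverse (71.9% of all genes). The median log2 fold change was 0.0795 over the 36 and 0.0194 over all genes tested. In either direction 86.1% of the 36 were called, against 77.1% of all genes, and 41.7% by at least 2-fold, against 28.3%. With so large a share of the table called, these counts, and those by role and by list below, set nothing apart. What follows is about which genes moved and by how much. ITGA6 and FERMT1 passed the filter through the knockdown libraries alone, and ITGA9 and FERMT3 through the control libraries alone, so these 4 had to differ. Of the 32 over the filter in all 8 libraries, 15 were higher and 12 lower. For every gene whose groups do not overlap, an exact two-sided permutation test over the 70 divisions of the libraries gave p = 0.0286, the smallest that 4 against 4 allows.

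**Figure D1:**
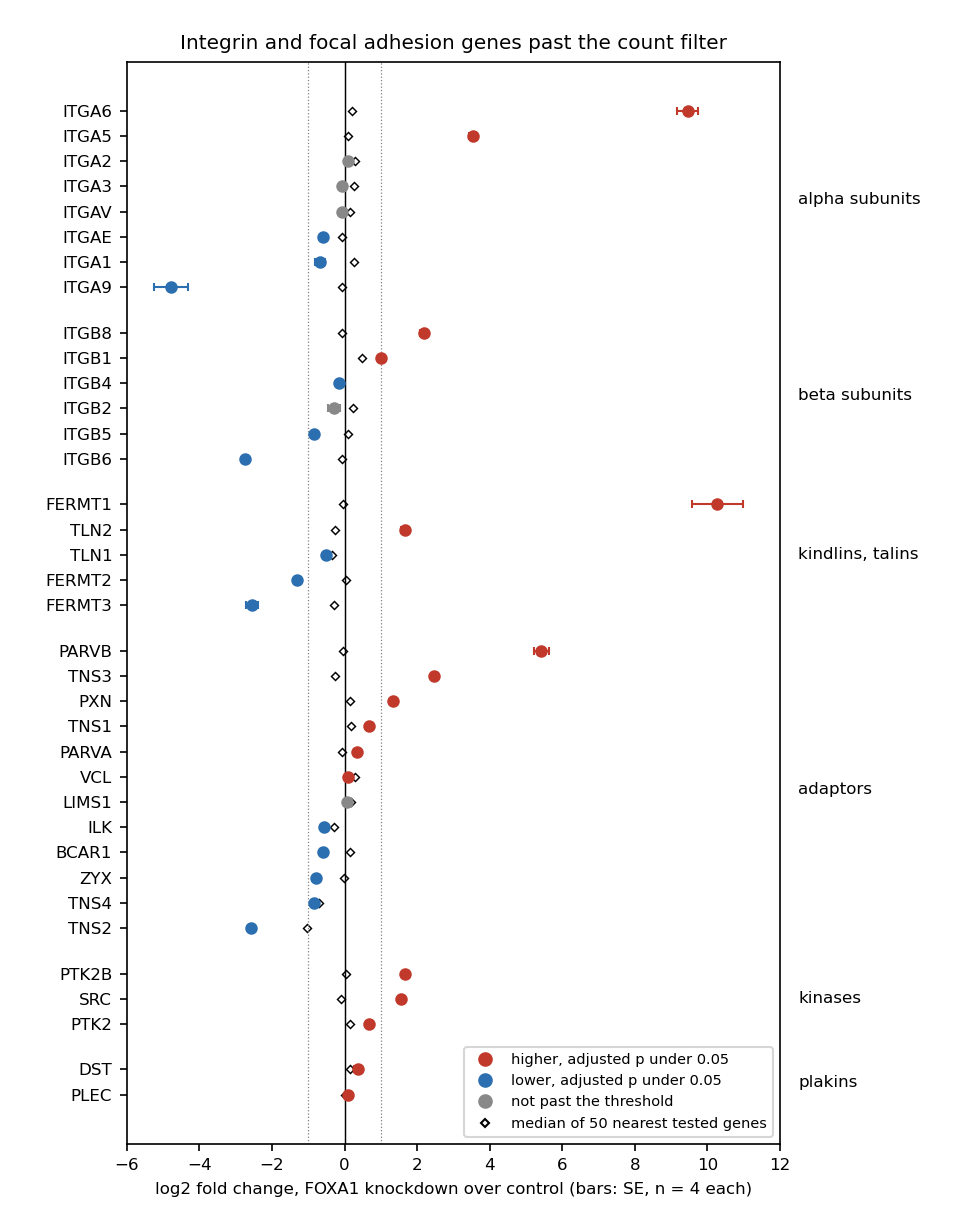
Log2 fold change of each tested gene (x axis, knockdown over control) by role (y axis), with the standard error from 4 libraries per group and, as open diamonds, the median among the 50 tested genes closest on the chromosome. FERMT1 at 10.27 and ITGA6 at 9.45 stand far to the right, ITGA9 at -4.78 farthest to the left, and the dotted lines mark a 2-fold change.

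Among the alpha subunits, 2 of 8 tested genes rose and 3 fell. ITGA6 (ENSG00000091409.15, chromosome 2, 172427354 to 172506282, plus strand, GENCODE 29 on GRCh38), which with ITGB1 or ITGB4 forms laminin receptors, had 3, 7, 3 and 7 counts in the controls and 3700, 4008, 3269 and 3554 in the knockdown libraries, each in the order of replicates 1 to 4 used throughout. All control libraries were near the floor and no knockdown library was under 3269 counts. Its mean CPM was 0.225 ± 0.0981 and 162.9 ± 4.01 (± SD, n = 4 libraries per group). The log2 fold change was 9.45 (SE 0.297, edgeR adjusted p = 3.19e-30), and the ratio of summed counts was 718, with a 95% interval of 465 to 1180 that covers counting error only.

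ITGA5 (chromosome 12, 54395261 to 54419460, minus strand), the alpha subunit of the main fibronectin receptor, had 3.02, 2.63, 3.61 and 2.80 CPM in the control libraries and 34.4, 36.0, 33.1 and 35.7 CPM in the knockdown libraries. The groups were far apart, 11.5-fold on their means (log2 change 3.53 ± 0.102 SE, edgeR adjusted p = 8.91e-23). ITGA9 (chromosome 3, 37452115 to 37823514, plus strand), which pairs with ITGB1 and binds tenascin and VCAM1, moved the other way. It had 85, 94, 82 and 107 counts in control and 3, 3, 6 and 1 in knockdown, a log2 change of -4.78 ± 0.464 (SE, edgeR adjusted p = 1.06e-14). ITGA9 shares 225 bp of exon with its antisense gene ITGA9-AS1, which had 2.07 CPM in control and 2.06 CPM in knockdown.

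The collagen receptor subunit ITGA1 fell from 5.57 CPM ± 0.863 to 3.52 CPM ± 0.376, and ITGAE, which binds E-cadherin, from 8.51 CPM ± 0.439 to 5.68 CPM ± 0.405 (± SD, n = 4 libraries per group). The reads of ITGA1 are uncertain because PELO lies within it on the same strand and shares 475 bp of exon. ITGAV, the common alpha subunit of receptors for vitronectin and for latent TGF-beta, had 110.9, 118.5, 100.2 and 110.4 CPM in control and 98.8, 111.1, 106.9 and 99.4 CPM in knockdown. These ranges overlap, and ITGAV (log2 change -0.08 ± 0.0648 SE, edgeR adjusted p = 0.143) did not pass the threshold. Without control replicate 3 it was called, at -0.126 with an edgeR adjusted p = 0.00799, and over all alternatives its adjusted p ran from 0.000189 to 0.947. ITGA3, which binds laminin, and ITGA2, which binds collagen, also overlapped between groups, with log2 fold changes of -0.08 (adjusted p of 0.17) and 0.09 (adjusted p of 0.303). With the shift of neighbouring genes taken out they were called lower, at -0.342 and -0.192.

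Of the beta subunits, 2 of 6 tested genes rose and 3 fell. ITGB1 (chromosome 10, 32900319 to 33005792, minus strand), the shared partner of most alpha subunits here, had 186.1, 183.3, 165.7 and 186.2 CPM in control and 373.5, 360.9, 355.5 and 349.7 CPM in knockdown. The means differed 2.00-fold (log2 change 1.00 ± 0.0452 SE, edgeR adjusted p = 5.58e-18). The 50 tested genes nearest to ITGB1 had a median log2 fold change of 0.47, and with that regional shift taken out ITGB1 stood at 0.53. ITGB8, which with ITGAV activates TGF-beta, rose from between 1.77 and 2.20 CPM to between 7.98 and 9.69 CPM, a log2 fold change of 2.18 (SE 0.0910).

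ITGB5 and ITGB6, both partners of ITGAV, fell. ITGB6 (chromosome 2, 160099666 to 160200313, minus strand), an epithelial subunit, had 58.9, 61.0, 49.5 and 60.8 CPM in control and 9.00, 8.47, 8.49 and 8.73 CPM in knockdown. Knockdown libraries kept 15.1% of the control level (log2 change -2.73 ± 0.0746 SE, edgeR adjusted p = 1.06e-20), and control replicate 3 was the lowest control. ITGB5 (chromosome 3, 124761948 to 124901418, minus strand) had 284.9, 274.0, 297.1 and 274.9 CPM in control and 155.8, 162.4, 149.8 and 168.3 CPM in knockdown, with no overlap and a log2 fold change of -0.83 (SE 0.0455).

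ITGB4, the hemidesmosome partner of ITGA6, had 36.5, 34.2, 36.5 and 34.7 CPM in control and 33.4, 31.5, 30.2 and 33.2 CPM in knockdown. Its fall of 0.14 on the log2 scale (SE 0.0427, edgeR adjusted p = 0.0122) was small. It was not called without knockdown replicate 3 (adjusted p of 0.0571), nor under upper-quartile or library-size scaling (0.134 and 0.274), and it came to -0.004 with the regional shift taken out. ITGB4 thus showed no rise beside that of ITGA6. ITGB2, the leukocyte beta subunit, had 53 to 74 counts in control and 41 to 69 in knockdown and did not pass the threshold (log2 change -0.28, edgeR adjusted p = 0.11). It was called without control replicate 2 (-0.368, adjusted p of 0.0487) and without knockdown replicate 1 (-0.383, adjusted p of 0.0443), and its adjusted p ran from 0.00527 to 0.297 over all alternatives.

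**Figure D2:**
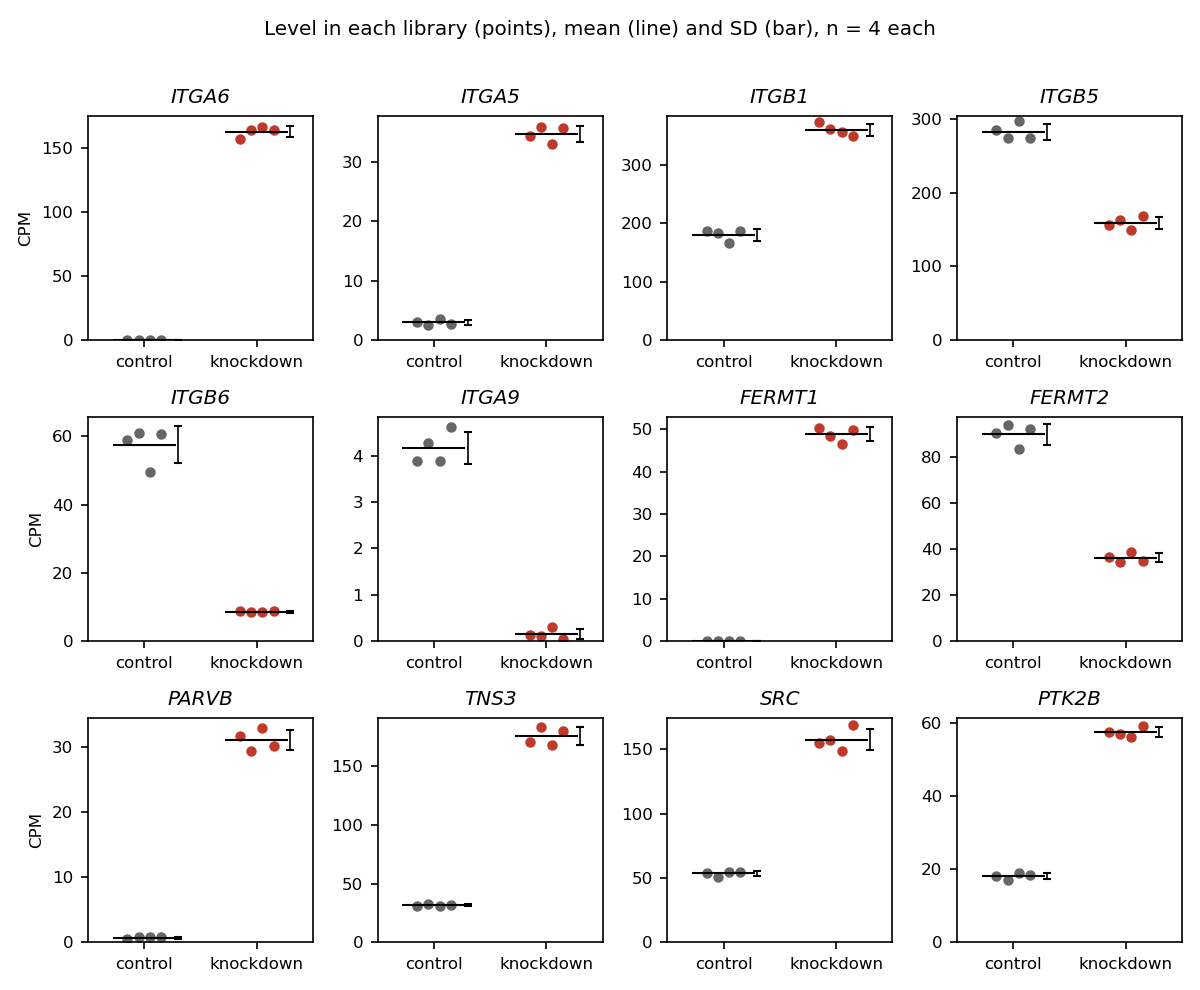
CPM of 12 genes in each library (y axes, starting at 0), with control libraries in grey and knockdown libraries in red, the group mean as a line and the SD as a bar (n = 4 each). In each panel the groups do not overlap; ITGA6 and FERMT1 lie near 0 in control, and ITGA9 in knockdown.

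Divided by merged exon length, so that genes can be compared, the alpha subunits summed to 26.7 CPM per kilobase ± 0.870 in control and 59.2 (range 57.5 to 60.8) in knockdown, over 4 libraries each. In control, ITGAV made up 57.2% ± 2.07 of that sum and ITGA3 22.5% ± 1.75. In knockdown, ITGA6 made up 47.1% ± 0.766, ITGAV 24.4% (range 23.5% to 25.4%) and ITGA5 13.2% ± 0.592, so the leading alpha subunit changed from ITGAV to ITGA6 in 4 of 4 libraries. The share of ITGAV went down although its own level was not called. The beta subunits summed to 130 ± 1.82 and 137 ± 2.85 CPM per kilobase. ITGB5 led in control with 49.9% ± 2.21, ahead of ITGB1 with 35.4% ± 1.62, and ITGB1 led in knockdown with 67.0% ± 1.32 against 26.6% ± 1.25 for ITGB5. ITGB6 went from 9.46% ± 0.845 to 1.35% ± 0.0271.

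**Figure D3:**
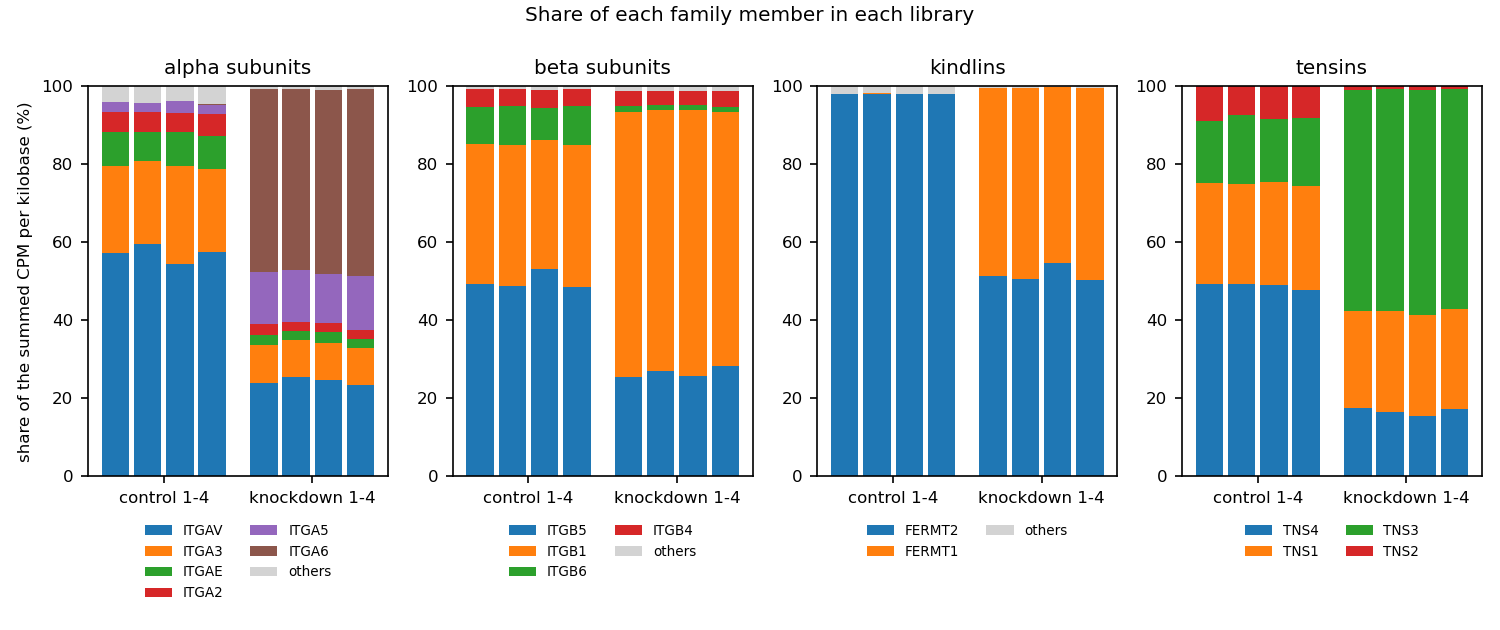
Share of each gene in the length-scaled level of its family (y axis, percent of summed CPM per kilobase), 1 bar per library, controls on the left and knockdowns on the right of each panel. ITGA6 takes 47.1% of the alpha subunits, ITGB1 67.0% of the beta subunits, FERMT1 47.9% of the kindlins and TNS3 56.9% of the tensins in knockdown.

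The kindlins and talins, which activate integrins, were all called, 2 higher and 3 lower, where 77.1% of all genes tested were called. FERMT1 (kindlin-1; chromosome 20, 6074845 to 6123544, minus strand), the kindlin of epithelial cells, had 0, 3, 0 and 0 counts in control and 1182, 1184, 916 and 1079 in knockdown. All control libraries were at or under the floor of 3 counts, and the ratio of summed counts was 1440, with a 95% counting interval of 491 to 6970 (edgeR adjusted p = 2.94e-25). The 3 control counts are all from control replicate 2, and without it the fitted log2 fold change went from 10.27 to 13.08, with every control at 0. FERMT2 (kindlin-2), the widely expressed kindlin, went the other way, with 90.1, 93.6, 83.2 and 91.8 CPM in control and 36.6, 34.2, 38.7 and 35.0 CPM in knockdown. Its log2 fold change was -1.31 (SE 0.0542, edgeR adjusted p = 2.81e-18). FERMT3 (kindlin-3), known from blood cells, had 29, 28, 25 and 30 counts in control and 5, 5, 3 and 6 in knockdown (log2 change -2.545 ± 0.158 SE). It shares 88 bp of exon with the more abundant TRPT1 on the opposite strand (15.9 CPM in control, 8.37 CPM in knockdown), so its counts are uncertain.

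Per kilobase, FERMT2 made up 98.0% ± 0.0380 of the kindlins in control and 51.7% ± 2.00 in knockdown, where FERMT1 made up 47.9% ± 1.91 (57.3% on counts not scaled by length). The summed kindlin level was 25.9 ± 1.30 CPM per kilobase in control and 19.8 ± 0.460 in knockdown, and these ranges did not overlap. TLN1 (talin-1), the main talin, fell from 215.4 CPM ± 5.37 to 150.2 CPM ± 2.80 (± SD over 4 libraries, log2 change -0.52), but its chromosomal neighbours had a median of -0.34, and -0.18 was left once that was taken out. TLN2 (talin-2) had 5.76, 6.71, 5.17 and 4.91 CPM in control and 18.97, 17.4, 16.6 and 19.2 CPM in knockdown (log2 change 1.68 ± 0.111 SE). Its share of the talins per kilobase went from 1.76% ± 0.264 in control to 7.59% ± 0.485 in knockdown. TLN2 shares 474 bp of exon with an antisense gene that had 2.94 CPM in control and 2.43 CPM in knockdown.

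Of the 12 adaptors, 6 rose, 5 fell and LIMS1 did not pass the threshold. In the complex around ILK, the parvins rose while ILK itself fell. PARVB (beta-parvin; chromosome 22, 43999211 to 44172949, plus strand) had 10, 17, 17 and 19 counts in control and 746, 718, 645 and 652 in knockdown, a log2 change of 5.43 ± 0.197 (SE, edgeR adjusted p = 7.42e-24). It lies with a sense-overlapping gene that shares 151 bp of exon and had 1.78 CPM in control and 1.86 CPM in knockdown. PARVA (alpha-parvin) rose from 94.7 CPM ± 1.47 to 121.1 CPM ± 5.21 (± SD over 4 libraries, log2 change 0.36), and PARVB went from 1.13% ± 0.258 to 28% ± 1.83 of the parvins per kilobase.

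ILK, a pseudokinase that holds the complex together, had 86.5, 86.3, 92.1 and 86.5 CPM in control and 61.3, 59.4, 59.0 and 59.9 CPM in knockdown. Its log2 fold change of -0.55 (SE 0.0259) came to -0.272 with the regional shift taken out. LIMS1 (PINCH-1) had 77.6 to 82.5 CPM in control and 83.6 to 85.2 CPM in knockdown, ranges that do not overlap but lie close (log2 change 0.07, edgeR adjusted p = 0.0869). Its sign turned to -0.12 without the regional shift, and over all alternatives its adjusted p ran from 0.000643 to 0.193.

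Tensins link the integrin tail to actin, apart from TNS4 (cten), which lacks the actin-binding part. TNS3 (chromosome 7, 47275154 to 47582558, minus strand) had 30.9, 32.6, 31.4 and 31.5 CPM in control and 170.4, 183.7, 168.3 and 180.5 CPM in knockdown. All knockdown libraries lay far above all controls, 5.56-fold on the means (log2 change 2.48 ± 0.0352 SE, edgeR adjusted p = 2.91e-25). TNS1 rose from 74.5 CPM ± 2.47 to 119.4 CPM ± 7.19 (± SD over 4 libraries, log2 change 0.68). TNS4 fell from 48.1 CPM ± 2.24 to 27.0 CPM ± 2.27 (± SD over 4 libraries, log2 change -0.83 ± 0.0715 SE). It lies on chromosome 17, which also carries ERBB2, and its 50 nearest tested genes had a median of -0.71. With that taken out, TNS4 stood at -0.123 and was no longer called (edgeR adjusted p = 0.0516, over all alternatives 2.11e-55 to 0.0516).

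TNS2 had 11.9, 9.34, 11.5 and 10.2 CPM in control and 1.87, 1.88, 1.83 and 1.66 CPM in knockdown (log2 change -2.56 ± 0.0908 SE, edgeR adjusted p = 1.78e-16). Its neighbours had a median of -1.04, which left -1.52. An antisense gene that shares 239 bp of exon with TNS2 went from 19.9 to 5.21 CPM, so the reads of TNS2 are uncertain. Per kilobase, TNS4 led the tensins in control with 48.9% ± 0.730 (on counts not scaled by length TNS1 led, with 45.2% against 29.1% for TNS4), and TNS3 led in knockdown with 56.9% ± 0.638 against 16.8% ± 0.890 in control.

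Paxillin (PXN; chromosome 12, 120210439 to 120265771, minus strand), a scaffold that docks FAK and other signalling proteins, had 65.2, 66.0, 74.6 and 67.2 CPM in control and 170.5, 173.5, 165.0 and 177.0 CPM in knockdown. The groups were 2.51-fold apart (log2 change 1.33 ± 0.0494 SE, edgeR adjusted p = 1.18e-19). Zyxin (ZYX), recruited where adhesions are under tension, fell, with 154.4, 147.2, 161.7 and 152.4 CPM in control and 87.6, 91.5, 85.4 and 92.0 CPM in knockdown (log2 change -0.79 ± 0.0381 SE). BCAR1 (p130Cas), a docking protein phosphorylated by SRC, fell from 33.7 CPM ± 1.98 to 22.4 CPM ± 1.05 (± SD over 4 libraries, log2 change -0.59).

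Vinculin (VCL), which reinforces the talin link to actin, had 246.5, 251.8, 251.4 and 258.5 CPM in control and 260.9, 275.0, 260.7 and 274.3 CPM in knockdown. The groups sit side by side, and a log2 fold change of 0.09 was called (SE 0.0257, edgeR adjusted p = 0.0199). VCL was not called without control replicate 1 (adjusted p of 0.0853), knockdown replicate 2 (0.0561) or knockdown replicate 4 (0.0655), and its sign turned to -0.191 without the regional shift. VCL also shares 1109 bp of exon with AP3M1 on the opposite strand. Among the genes of highest level per kilobase, ITGB5 (64.7 ± 2.47), ZYX (57.5 ± 2.25), ITGB1 (45.9 ± 2.50), ILK (38.2 ± 1.23) and VCL (37.7 ± 0.740) led in control, with ILK and VCL not beyond their spread from each other. In knockdown the order was ITGB1 (91.6 ± 2.59), VCL (40 ± 1.19), ITGB5 (36.4 ± 1.83), SRC (33.5 ± 1.74) and ZYX (33.3 ± 1.18), with ITGB5 and SRC, and SRC and ZYX, within their spread of each other.

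All 3 kinases rose, as did 39.4% of all genes tested. SRC (chromosome 20, 37344685 to 37406050, plus strand) had 53.7, 50.9, 55.1 and 54.6 CPM in control and 154.7, 157.6, 149.1 and 168.6 CPM in knockdown (log2 change 1.56 ± 0.0449 SE, edgeR adjusted p = 5.16e-21). PTK2B (PYK2), the calcium-responsive relative of FAK, had 18.3, 17.1, 19.02 and 18.6 CPM in control and 57.6, 57.1, 56.2 and 59.4 CPM in knockdown (log2 change 1.66 ± 0.0362 SE, edgeR adjusted p = 2.92e-20). PTK2 (FAK), the kinase at most integrin adhesions, had 47.1, 50.3, 44.8 and 48.9 CPM in control and 76.4, 77.6, 76.0 and 74.8 CPM in knockdown (log2 change 0.67 ± 0.0377 SE). The groups were apart for each kinase. Per kilobase, PTK2B was 41.2% ± 2.19 of the sum of both FAK family genes in control and 58.1% ± 0.833 in knockdown, so their order changed; on counts not scaled by length PTK2B stayed below PTK2, at 43% in knockdown. These values are mRNA levels and say nothing of kinase activity.

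The plakins showed small changes. DST had 93.5, 85.7, 71.2 and 100.2 CPM in control and 115.2, 121.2, 114.2 and 103.3 CPM in knockdown, with control replicate 3 the lowest (log2 change 0.37 ± 0.117 SE, edgeR adjusted p = 0.0172). Without that library the change was 0.28, and without the regional shift it was 0.208 and not called (adjusted p of 0.126). PLEC had 447.2, 420.4, 469.2 and 429.3 CPM in control and 439.6, 505.1, 462.9 and 482.2 CPM in knockdown. These ranges overlap, and the call for PLEC (log2 change 0.10, edgeR adjusted p = 0.0384) was lost in 12 of 19 alternatives, over which the adjusted p ran from 0.00101 to 0.161. Among these 12 were the fits without control replicates 1, 2 and 4 and without knockdown replicates 2 and 4, each in turn (0.0766, 0.161, 0.128, 0.143 and 0.0984).

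The 6 genes below the filter were all at a few counts. ITGB3 had 2 to 5 counts in control and 7 to 14 in knockdown, and ITGA7 2 to 5 and 7 to 13, both without overlap and neither tested. ITGA11 had 3 to 8 counts in control and 0 to 3 in knockdown. ITGA10 had at most 4 counts, ITGB7 at most 2 and ITGA4 at most 1 in any library, at or near what the floor of 3 counts allows. ITGB7 shares 1474 bp of exon with ZNF740 on the opposite strand. Of 5 leukocyte and platelet alpha subunits outside the 43, ITGAL alone was tested, with 40 to 48 counts in control and 0 to 2 in knockdown, while ITGAM, ITGAX, ITGAD and ITGA2B had at most 18 counts in any library. ITGAL passed the filter through the control libraries alone, so it had to differ.

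Other genes of the pathway were read from lists. Of 28 tested actin linkers and LIM adaptors, 15 rose and 10 fell (median log2 fold change 0.325). PDLIM5, a scaffold on actin bundles, went from between 219.2 and 234.1 CPM to between 2.76 and 3.00 CPM (log2 change -6.28 ± 0.0347 SE), and TRIP6, a relative of zyxin, from between 152.3 and 173.8 CPM to between 1.73 and 2.59 CPM (-6.095, SE 0.142). SORBS3 (vinexin), a vinculin partner, rose from 2.09 CPM ± 0.261 to 25.4 CPM ± 1.16, and KANK4, a talin-binding protein, from 9.46 CPM ± 0.733 to 46.9 CPM ± 1.70 (± SD, n = 4 libraries per group). Of the zyxin family genes read here, ZYX kept 57.9% of its control level, TRIP6 1.45%, LPP 65.1% and LIMD1 86.6%. The family was not read in full.

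Of 30 tested signalling genes, 7 rose and 16 fell (median -0.137). APBB1IP (RIAM), which brings talin to integrins, had 0 counts in every control library and 6.15 to 8.02 CPM in knockdown, at least 48.2-fold higher against the floor of 3 counts per library. It passed the filter through the knockdown libraries alone. The SRC relative FYN rose from 5.01 CPM ± 0.465 to 31.5 CPM ± 0.490, RHOB fell from 694.7 CPM ± 24.2 to 296.0 CPM ± 11.6, and ELMO1, part of a RAC exchange factor, fell from 28.6 CPM ± 0.906 to 2.04 CPM ± 0.109 (± SD, n = 4 libraries per group).

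Among 17 membrane partners of integrins, 6 rose and 9 fell (median -0.208). RAB25, a GTPase that recycles integrins containing ITGB1, fell from 152.9 CPM ± 7.43 to 2.42 CPM ± 0.265, and the tetraspanin CD82 from 251.5 CPM ± 15.2 to 20.4 CPM ± 0.824 (± SD, n = 4 libraries per group). The tetraspanin CD9 rose from 76.3 CPM (range 74.3 to 77.8) to 133.3 CPM ± 4.24, and DAB2, an endocytic adaptor for integrins, from 10.3 CPM ± 0.899 to 41.3 CPM ± 1.01 (± SD, n = 4 libraries per group).

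Of 17 tested ligands, 7 rose and 6 fell (median 0.110). LAMC1, the gamma chain found in most laminins, had 1.92, 2.04, 2.28 and 1.55 CPM in control and 687.8, 734.0, 679.0 and 721.0 CPM in knockdown (log2 change 8.50 ± 0.119 SE, edgeR adjusted p = 3.46e-32). The groups were far apart, and this laminin chain and ITGA6, a laminin receptor subunit, were thus both low in control and high in knockdown. Not every ligand and receptor moved together. FN1 (fibronectin) fell from 116.4 CPM ± 2.45 to 39.1 CPM ± 2.43 (± SD, n = 4 libraries per group), while ITGA5, of the main fibronectin receptor, rose. Nor were all laminin chains low in control, with LAMB1 at 373.8 CPM in control and 403.4 CPM in knockdown. VTN (vitronectin), a ligand of receptors with ITGAV, rose from 0.775 CPM ± 0.195 to 36.5 CPM ± 2.20. LAMA3, another laminin chain, fell from 13.4 CPM ± 0.571 to 2.09 CPM ± 0.289, and NPNT (nephronectin), a ligand of ITGA8, from 10.5 CPM ± 0.561 to 0.3002 CPM ± 0.0983 (± SD, n = 4 libraries per group). NPNT passed the filter through the control libraries alone. Laminin chains thus went in both directions. LAMB3 rose from 5.25 CPM ± 0.235 to 25.4 CPM ± 1.34, and LAMA5 from 426.3 CPM ± 19.8 to 949.7 CPM ± 43.2 (± SD, n = 4 libraries per group). Called genes in each list went in both directions, as they did in the table as a whole (39.4% higher and 37.7% lower).

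**Figure D4:**
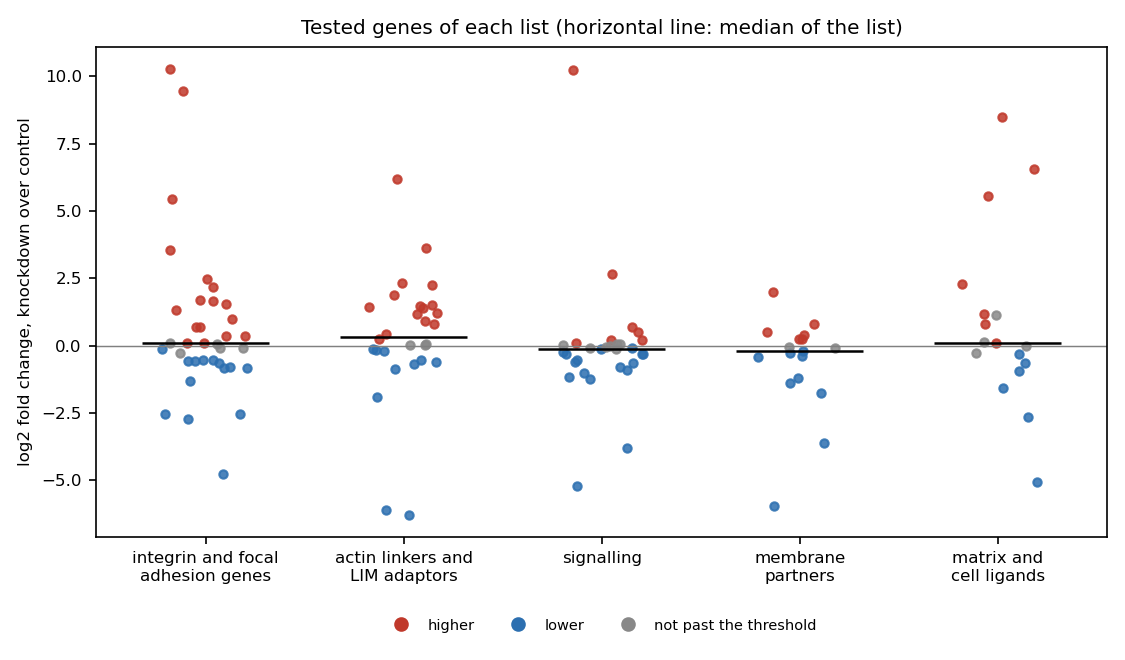
Log2 fold change (y axis, knockdown over control) of each tested integrin or focal adhesion gene and of the tested genes of 4 pathway lists, coloured by call at an adjusted p under 0.05, with the list's median as a line. Medians lie between -0.208 and 0.325 while single genes reach 10.27 and -6.28.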

How the data were processed

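RNA was sequenced from 4 control and 4 FOXA1 knockdown libraries of SKBR3. The authors deposited whole-number read counts per gene. Per the submitters' processing notes, FastQC, Salmon 1.9, DESeq2 (given as 3.16) and build hg38 were used, in roles not stated. Salmon estimates counts from transcripts, so the values may be rounded estimates, and strand and annotation release are not given in the sources used here. Groups come from sample titles.

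Counts were tested in R 4.3.3 with edgeR 4.0.16: filterByExpr (minimum 10 counts, total 15) kept 16430 genes, with TMM scaling, robust quasi-likelihood fits (prior count 0.125) and Benjamini-Hochberg adjustment over all of them. CPM uses TMM-scaled totals, and standard errors come from log2 CPM with 0.5 added to counts. Libraries of a group varied by 4.56% beyond counting error. Positions and merged exon lengths come from GENCODE 29 and promoters from RefSeq. Alternatives used limma 3.58.1 and DESeq2 1.42.0, other scalings and filters, a replicate block, each library left out, and an offset for the median change among the 50 tested genes closest on the chromosome (regional shift). The test was checked on simulated data.

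The members and lists were chosen with earlier results of these data known. Named genes are the members, in full where called with at least a 2-fold change, at the floor or among the 5 highest per kilobase, and up to 2 rises and 2 falls per list (mean of at least 50 counts, no overlap). The ligands FN1, LAMA5, LAMB1 and LAMB3 and the linkers LPP and LIMD1 are named beside them, outside this rule. Figures used Python 3.11.15 and matplotlib 3.10.9.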

Additional observations from a re-analysis of the deposited data

Results flagged for a closer look

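Dixon's test at the 95% level, which sets the distance of the highest or lowest library from its nearest neighbour against the span of its group, marked 5 of the 74 groups of 4 libraries examined. About 1 in 20 groups (3.7 here) is marked by chance alone. Control replicate 3 accounts for 3 of the 5. It scored -40.1 on the second principal component while replicates 1, 2 and 4 scored 9.52 to 16.3 (gap ratio 0.880). Its ITGB1 level was the lowest, 165.7 CPM beside 183.3 to 186.2 (gap ratio 0.859), and its ILK level the highest, 92.1 CPM beside 86.3 to 86.5 (gap ratio 0.972). Leaving it out gave log2 changes of 0.954 for ITGB1 and -0.533 for ILK. For FERMT1, control replicate 2 had 0.136 CPM, or 3 counts, and the other controls had 0 (gap ratio 1). For PARVB, control replicate 1 was low with 0.457 CPM beside 0.771 to 0.818 (gap ratio 0.870).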

How the results depend on the processing

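Over 19 alternatives the count of higher genes ran from 14 to 19 (main value 17) and that of lower genes from 12 to 18 (main value 14). Leaving out single libraries gave 15 to 18 higher and 13 to 15 lower, and without control replicate 3 there were 18 and 15. Same-numbered control and knockdown libraries correlated between -0.0669 and 0.0673 in their deviations, so the numbers were not taken to pair the samples. The replicate block gave 16 higher and 14 lower, and among the 36 changed no call but that of PLEC (adjusted p of 0.0664). In the lists, the block moved the count of higher signalling genes from 7 to 6 and that of higher ligands from 7 to 8. Over all alternatives signalling genes ran from 6 to 10 higher and 14 to 19 lower, ligands from 5 to 9 in either direction, linkers from 14 to 18 higher and 8 to 10 lower, and membrane partners stayed at 6 higher with 9 to 10 lower. Library scaling moved the median log2 fold change of all genes from 0.0194 to at most 0.103. Of 682 values of single genes under an alternative, 643 kept their direction and side of the threshold, 24 lost the call, 10 gained one and 5 changed sign. The sign changed with library size only for ITGA3 (0.006) and ITGAV (0.004). With the regional shift removed it changed for ITGA2 (-0.192), VCL (-0.191) and LIMS1 (-0.12). That offset takes out the median of the neighbours (0.28, 0.279 and 0.192), which exceeded the change of each gene itself (0.088, 0.087 and 0.072). Why the neighbours moved was not tested. Shares within families measured on counts, not scaled by length and chosen after seeing the data, kept ITGA6 ahead of ITGAV (46.4% and 29.6%) and ITGB1 ahead of ITGB5 (63.0% and 27.8%) in knockdown, but put FERMT1 at 57.3% against 42.4% for FERMT2, PTK2B at 43% and TNS4 at 29.1% of the control tensins. Genes at a few counts, such as ITGB3 and ITGA7, are limited by depth.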
